A study of Squalius alburnoides and Squalius pyrenaicus with 4 samples.

Results

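The comparison set the non-hybrid form AA of the Squalius alburnoides complex, a group of small freshwater fish of the Iberian Peninsula that arose by hybridization, against PP, the parental species Squalius pyrenaicus. AA fish carry 2 copies of the A genome and no P genome, and are males. PP fish carry 2 copies of the P genome. AA fish came from the Almargem River and PP fish from Colares. Each composition was represented by 1 pool of RNA from adult liver, muscle and brain of about 3 fish, labelled with the dye Cy3 and hybridized to 1 miRNA array. These were 2 of the 4 arrays of the series, and the other two held the hybrids PAA and PA. The AA and PP arrays lay on 1 slide, AA in the upper position. With 1 array per composition there was no test between AA and PP, and the genome, the river, the sex and the position on the slide cannot be told apart. The standard errors (SE) given below are over the replicate spots of a probe and cover the reading of the arrays only, not the spread between fish.

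MicroRNAs are short RNAs that pair with messenger RNAs, mainly through the bases near their 5′ end, and lower their stability or translation. Members of a family share those bases and are often cut from the same primary transcript. In fish, miR-122 and miR-192 are known from liver, miR-1, miR-133 and miR-206 from striated muscle, and miR-9, miR-124, miR-138 and miR-219 from the nervous system.

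The members were the probes that carried a zebrafish name, of 1157 named probes on the chip. They filled 872 of the 5040 spots of an array, each probe with 2 spots in each of 2 rows of blocks. Neither species has probes of its own there, so each value is the signal of fish RNA on a zebrafish sequence. The signal of a spot was its foreground minus the local background, in scanner units. Readings of spots given below are not normalized, whereas the log2 differences are after quantile normalization. A spot passed if the scanner file had not set it aside and its foreground was at least 2 times the background, and a probe was called detected with at least 2 passing spots. By this rule 154 probes were detected on AA and 156 on PP, of which 130 were detected on both. Another 24 were detected on AA only, 26 on PP only, and 38, the rest of the members, on neither, although 22 of those 38 were detected on a hybrid array.

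Both arrays were dim, and this bears on every value below. The median passing spot covered 34 pixels on AA and 27 on PP, and 38.2% of passing zebrafish spots on AA and 41.0% on PP covered fewer than 10. Spots printed without a probe (BLANK) gave the reading with no probe, and their 95th percentile was 241 normalized units on AA and 577 on PP. This rested on 40 retained spots on AA and 34 on PP. Their median was far lower, at 36 scanner units on AA and 49 on PP, so the percentile marks the upper readings of few spots. Of the detected probes, 66 exceeded that BLANK level on AA and 31 on PP. The spots of a probe had a median SD of 0.12 log2 units on AA and 0.34 on PP.

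Most zebrafish probes had readings within 2-fold on both arrays. Of the 130 probes detected on both, 98 (75.4%) lay within 2-fold after quantile normalization over the 4 arrays. Only 25 of the 130 exceeded the BLANK level on both arrays, and 4 of these were beyond 2-fold. For readings below BLANK, a difference within 2-fold does not show similar miRNA levels. AA was the higher array for 67 (51.5%) and PP for 62 (47.7%), and 1 was equal. The passing spots of AA and PP did not overlap for 62 probes (47.7%). The median log2 difference (AA minus PP) was 0.01, with quartiles of −0.49 and 0.50. Normalization sets this median near 0, so only differences relative to the other probes can be read. Across probes the levels on AA and PP had a Pearson r of 0.85 and a Spearman rho of 0.56, which is a description over probes of 2 arrays on 1 slide.

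Beyond 2-fold, 18 probes were higher on AA (13.8% of those detected on both) and 14 on PP (10.8%). These shares are the background for every count of members below. The split between directions depended on the scaling: it was 9 higher on AA and 23 higher on PP after scaling to the total signal, and 20 and 11 after scaling to the median. All 32 kept their direction under each scaling tried. They were not spread evenly over brightness, since 1 of the 43 dimmest probes, 17 of the 43 in the middle and 14 of the 44 brightest passed 2-fold.

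**Figure D1:**
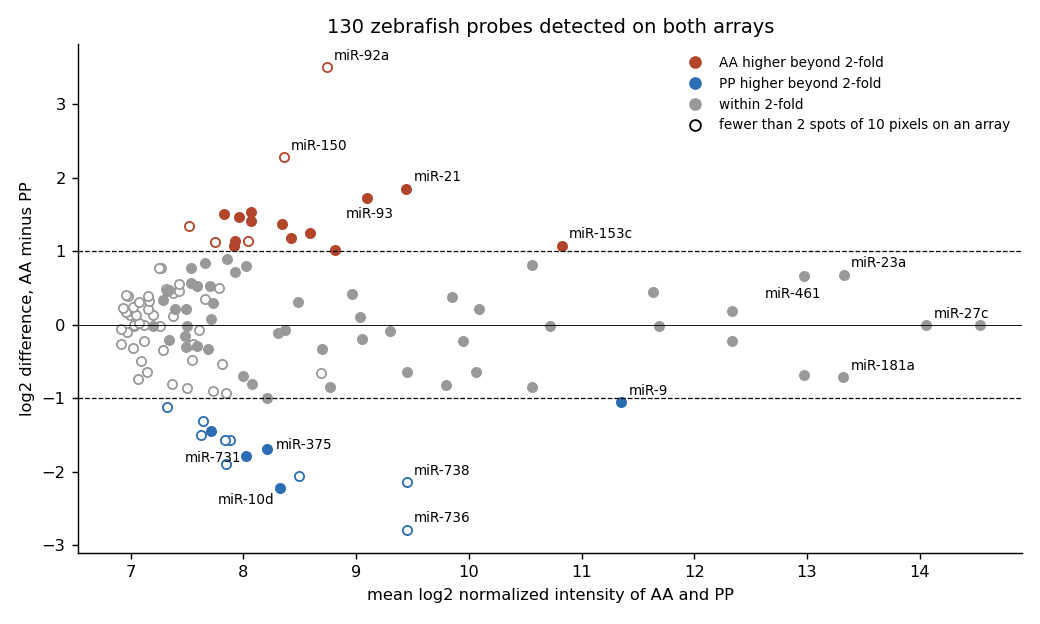
Log2 difference (AA minus PP) of the 130 zebrafish probes detected on both arrays against their mean log2 normalized intensity, with dashed lines at 2-fold and open points where an array had fewer than 2 spots of at least 10 pixels. Of the 18 probes higher on AA, 13 are filled, and of the 14 higher on PP, 5 are filled, while the brightest probes lie within 2-fold.

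The probes higher on AA rested on fuller spots than those higher on PP. At least 2 spots of 10 or more pixels on both arrays stood behind 13 of the 18 probes higher on AA and 5 of the 14 higher on PP, against 71 of all 130. Among those 71 probes the shares beyond 2-fold were 18.3% higher on AA and 7.04% higher on PP. All 18 probes higher on AA exceeded the BLANK level of AA (241 units), and 5 of the 14 higher on PP exceeded that of PP (577 units). These levels are unlike, so the counts do not rank the sides. Only miR-153c on the AA side and miR-736, miR-738 and miR-9 on the PP side exceeded the BLANK level on both arrays. The AA levels of miR-455, miR-24, miR-222, miR-100, let-7b, miR-103, miR-125c, miR-10a*, miR-202, miR-142a-5p and miR-25 lay below the BLANK level of PP. With PP raised to that level, these probes kept no difference towards AA. On the PP side, only the PP level of miR-214 lay below the BLANK level of AA. The part of the BLANK levels and spot sizes in the differences was not tested.

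miR-92a, a member of the miR-17-92 cluster that is abundant in dividing cells, had the widest difference of all, at 1439 units on AA and 127 on PP (log2 difference 3.50 ± 0.30, SE). Its 4 spots read 1423, 1639, 1997 and 1811 on AA, each over more than 70 pixels. On PP its 3 passing spots read 184, 115 and 96, over 9, 2 and 1 pixels. The spots of the arrays were far apart, but PP was below its own BLANK level, so the level on PP lay within the readings of spots without a probe. With PP raised to its BLANK level the log2 difference was 1.32, or 2.49-fold.

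miR-21, known for its induction in growing and injured tissue, was the clearest difference with full spots on both arrays. It read 1594, 1558, 1262 and 1399 on AA, against 367, 384, 322 and 352 on PP, and its normalized intensities were 1322 on AA and 367 on PP (log2 difference 1.85 ± 0.09, SE). Every AA spot was more than 3 times every PP spot. The PP level was below its BLANK level, and with PP raised to that level the difference was 2.29-fold. miR-21 stayed beyond 2-fold in all 13 alternatives that gave it a value, with log2 differences of 1.19 to 2.49.

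Apart from miR-153c, the other probes higher on AA beyond 2-fold with 4 full spots per array had lower signal. miR-1, which is enriched in striated muscle, read 435, 496, 540 and 450 on AA, against 282, 276, 277 and 268 on PP (log2 difference 1.25 ± 0.07, SE). miR-100, of a family with miR-99, read 351, 378, 330 and 331 on AA, against 205, 203, 179 and 180 on PP (1.40 ± 0.07). miR-125c, a relative of the lin-4 miRNA of worms, read 399, 414, 411 and 409 on AA, against 258, 256, 267 and 262 on PP (1.17 ± 0.02). The normalized intensities on AA and PP were 593 and 249 for miR-1, 437 and 165 for miR-100, and 514 and 228 for miR-125c. The normalized differences are wider than those of the spot readings. miR-1 was beyond 2-fold in 7 of 13 alternatives, miR-100 in 8 of 12 and miR-125c in 4 of 12. In each of these probes the sets of spots did not overlap, and the AA level exceeded the BLANK level of its array while the PP level did not. With PP raised to its BLANK level, miR-1 differed 1.03-fold, and the AA levels of miR-100 and miR-125c lay below that level. The share of each tissue in the pools was not measured, so fewer cells of a type and less RNA per cell cannot be told apart. The star strand miR-10a* also had 4 full spots on each array, at 361 units on AA and 163 on PP (1.14 ± 0.09).

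miR-153c, of a family known from the nervous system, was the brightest probe that was higher on AA beyond 2-fold. It read 2470, 2908, 2416 and 2443 on AA, against 1114, 1110, 841 and 859 on PP. The normalized intensities were 2634 on AA and 1250 on PP (log2 difference 1.08 ± 0.13, SE), both above BLANK.

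The remaining probes on the AA side had fewer passing spots. miR-93 (log2 difference 1.72 ± 0.31, SE), miR-455 (1.53 ± 0.05), miR-24 (1.51 ± 0.15), miR-222 (1.46 ± 0.13) and let-7b (1.37 ± 0.29) each had 2 or 3 spots per array, all over at least 10 pixels. The spots of miR-93 read 947 and 985 on AA, against 482, 277 and 240 on PP, and those of miR-24 read 299, 296 and 288 on AA, against 167, 127 and 121 on PP. miR-24 and miR-222 stayed beyond 2-fold in every alternative that gave them a value. Raising PP to its BLANK level gave them none, because their AA levels lay below it. miR-25 (1.07 ± 0.04) and miR-430j (1.02 ± 0.17) lay just outside 2-fold. miR-103, at 291 units on AA and 115 on PP (1.34 ± 0.28), rested on 2 PP spots of 136 and 97 over 4 and 1 pixels, and its sign turned when the spots set aside by the scanner file were included. miR-150, known from lymphocytes, had a log2 difference of 2.27 ± 1.32, from AA spots of 1526 and 251 that covered 2 pixels each. miR-142a-5p, known from blood cells, had overlapping spots (1.13 ± 1.08). miR-202, known from the gonad, had 2 passing spots per array, all in the same row of blocks, with 285 and 307 on AA and 279 as the brighter reading on PP.

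**Figure D2:**
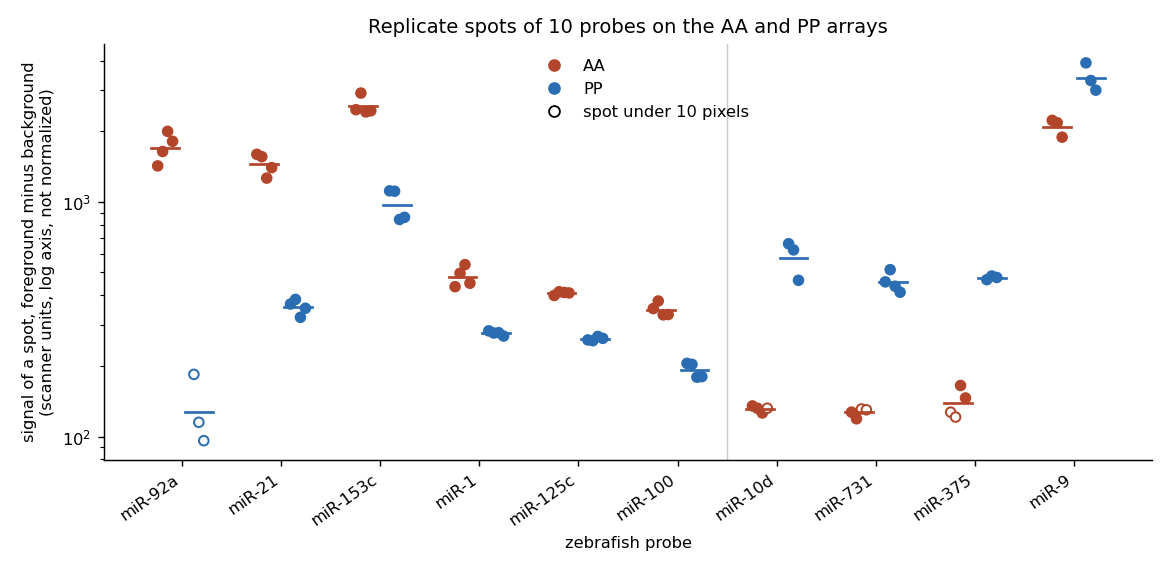
Signal of each passing replicate spot (foreground minus background, scanner units, log axis, not normalized) for 6 probes higher on AA and 4 higher on PP, with bars at the mean of the log values and open points for spots under 10 pixels. The AA and PP spots do not overlap for any of the 10 probes, and the open points are the PP spots of miR-92a and some AA spots of miR-10d, miR-731 and miR-375.

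On the PP side, miR-10d of the miR-10 family had the widest difference among probes with separate spots. The miR-10 genes lie in the Hox clusters and are expressed along the trunk. miR-10d read a mean of 131 over 4 spots on AA, against 663, 624 and 463 on PP, and its normalized intensities were 148 on AA and 688 on PP (log2 difference −2.21 ± 0.16, SE). It was the 1 member above the BLANK level of PP. miR-10b (120 on AA and 443 on PP, −1.89 ± 0.55) and miR-10c (407 on PP, −1.57 ± 0.10) went the same way with 1 PP spot of 10 or more pixels each. Their PP spots of 297 and 302 (miR-10b) and 398 and 349 (miR-10c) lay on local backgrounds of 232 to 280. The median background on PP was 102, and the passing miR-10d spots had 91 to 106. On backgrounds of 248 to 279, PP spots of let-7g read 390 and 365 and those of miR-203b 351 and 366. The remaining passing miR-10b spot read 943 over 4 pixels. The part of the background in these values was not tested. The fourth member, miR-10a, was detected on AA only, at 178 units, with 1 passing spot of 2 measured on PP. So 3 of the 3 members detected on both arrays were beyond 2-fold in the direction of PP (10.8% of all probes), and the family median of −1.89 ranged from −2.64 to −1.29 over the alternatives.

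miR-731, which teleosts carry in a cluster with miR-462, had 4 passing spots on each array, and these lay apart. It read 127, 119, 131 and 130 on AA, against 456, 514, 437 and 412 on PP, with normalized intensities of 140 on AA and 484 on PP (log2 difference −1.79 ± 0.07, SE). Both arrays were below their BLANK levels. It stayed beyond 2-fold in all 13 alternatives, from −2.01 to −1.01. The cluster's other member, miR-462, had a log2 difference of −0.27.

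miR-375, known from pancreatic islets and other endocrine cells, had 165 units on AA and 532 on PP (log2 difference −1.69 ± 0.10, SE). Its 4 spots read from 121 to 165 on AA, against 466, 483 and 476 on PP, with no overlap. Both arrays were below their BLANK levels for miR-375. Of the other pancreatic miRNAs listed, miR-216a was detected on AA only and miR-216b and miR-217 on neither, so miR-375 stood alone for that list.

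miR-9, a miRNA of neural progenitors and neurons, was the brightest probe higher on PP beyond 2-fold with separate spots, and the only one of these above BLANK on both arrays. It read 2225, 2173 and 1886 on AA, against 3910, 3288 and 2991 on PP, with normalized intensities of 1816 on AA and 3776 on PP (log2 difference −1.06 ± 0.14, SE). It was beyond 2-fold in 3 of 13 alternatives and kept its sign in all of them. miR-92b (1126 on AA and 2019 on PP, −0.84 ± 0.17), let-7g (210 and 419, 1.99-fold higher on PP, SE 0.05 on the log2 scale) and let-7f (325 and 582, −0.84 ± 0.30) had separate spots but lay within 2-fold.

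The other probes higher on PP had few pixels or spots that differed among themselves. miR-736 had the widest difference (−2.79 ± 2.14), with PP spots of 6832 and 6957 in 1 row of blocks and 97 in the other, and its AA spots of 590, 350, 100 and 120 each covered 4 pixels or fewer. miR-738 (−2.13 ± 1.62) and miR-210, known for its induction by low oxygen (−1.31 ± 1.26), also had overlapping spots. miR-193a (−2.06 ± 0.59), miR-203b (−1.57 ± 0.06), miR-19a* (118 units on AA and 332 on PP) and miR-214 (−1.12 ± 0.19) had no overlap but fewer than 2 spots of 10 pixels on at least 1 array. miR-26a (−1.44 ± 0.73) had PP spots of which 1 read 958 and the others near 205, against 110 to 127 on AA.

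**Figure D3:**
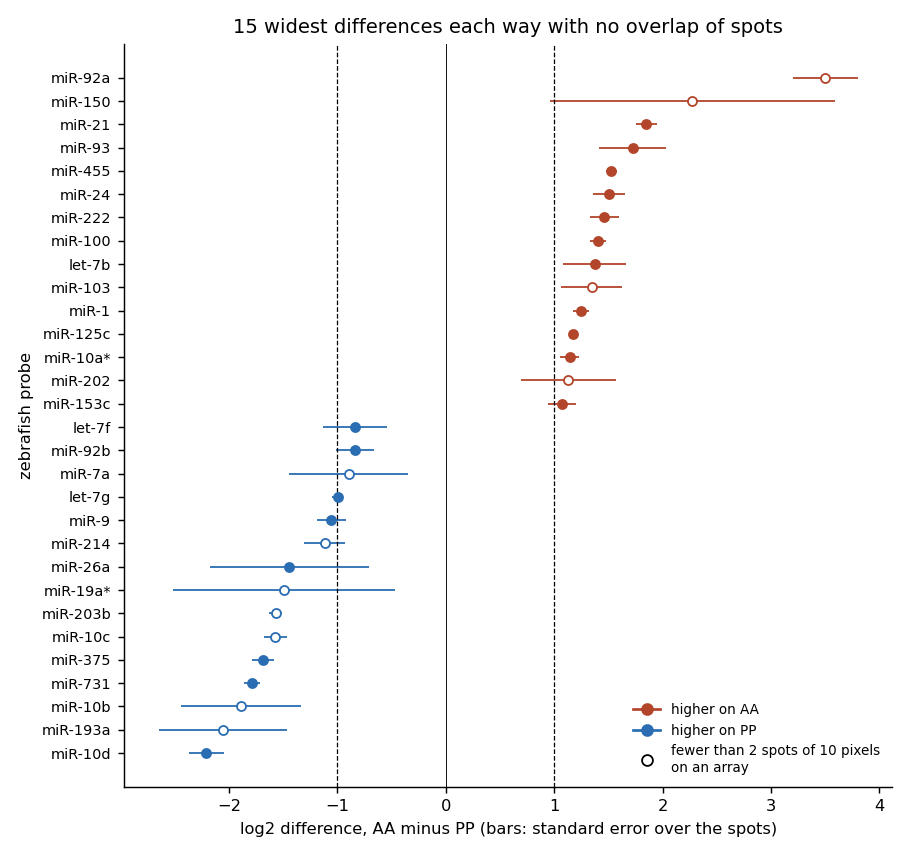
Log2 difference (AA minus PP) of the 15 probes with the widest differences in each direction among those whose AA and PP spots did not overlap, with the SE over spots as bars and open points where an array had fewer than 2 spots of at least 10 pixels. miR-92a stands at 3.50 on the AA side and miR-10d at −2.21 on the PP side, and the last 4 probes on the PP side lie within 2-fold.

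In 6 of the 115 probes with both pairs of spots measured on both arrays, the pair in 1 row of blocks was more than 2-fold brighter than the other pair in the same direction on AA and on PP. These were miR-150, miR-202, miR-736, miR-193a, miR-203b* and miR-133b*. Each of their values depends on which spots passed.

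miR-192, miR-27c, miR-23a and miR-181a were among the 5 brightest probes on both arrays. miR-192, of liver, ranked first on both arrays, so that quantile normalization gave it the same value. miR-27c followed, with 17066 units on AA and 17127 on PP (log2 difference −0.01 ± 0.16, SE). miR-23a had 13009 units on AA and 8113 on PP (0.68 ± 0.18), and the teleost miR-461 had 10133 and 6399 (0.66 ± 0.03). miR-461 was among the 5 brightest on AA only. miR-220 was among them on PP only, with 6345 units on AA and 10220 on PP (−0.69 ± 0.30). The spots of miR-220 read 8424 to 13316 on AA and 7418 to 12427 on PP, with overlap. miR-181a had spots from 7307 to 14034 on AA and from 4454 to 21163 on PP, and these overlapped.

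Families were compared through lists of miRNAs, most with a shared seed, cluster or tissue. The star strands, the teleost miRNAs, and miR-21, miR-22, miR-34 and miR-210 were grouped on other grounds. Lists overlap, so the counts below include some probes more than once. The sensory organ list and the miR-183 cluster hold the same members, and the brain list shares members with the list of miR-132, miR-138, miR-153 and miR-219. Of 40 lists, 39 had a member detected on both arrays, and the median was above 0 in 24 and below 0 in 14. After scaling to the total signal these were 14 above and 25 below. The median lay beyond 2-fold in 7 lists, and of these only the miR-10 family (3 members) and miR-462 with miR-731 (2 members) rested on more than 1 probe. The others were miR-222 of its cluster with miR-221, miR-100 of the miR-99 and miR-100 family, miR-125c of the miR-125 family and the gonad list on the AA side, and the pancreas list on the PP side. In the miR-125 family, the brightest member, miR-125b, was detected on PP only, at 2195 units, and miR-125a on AA only, at 196 units.

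In the clusters of miR-23, miR-27 and miR-24, most members detected on both arrays read higher on AA. Only miR-23a and miR-27c, among the brightest probes, exceeded the BLANK level of PP. The brighter, miR-27c, had a log2 difference of −0.01 ± 0.16 (SE). Of 8 members, 6 were detected on both arrays and 5 of these were higher on AA at any size (51.5% of all probes), with a median of 0.60 that stayed above 0 in every alternative, from 0.25 to 0.77. miR-24 was the 1 member beyond 2-fold. miR-27e, with 4 full spots per array, had a log2 difference of 0.77 ± 0.02 (SE). The AA levels of miR-24 and miR-27e lay below the BLANK level of PP. Probes of other vertebrates under the same names gave 0.03 ± 0.32 for miR-23a and −0.48 ± 0.21 for miR-23b.

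The family of miR-25, miR-92 and miR-363 did not go one way. miR-92a (3.50) and miR-25 (1.07) were higher on AA and miR-92b (−0.84) and miR-363 (−0.26 ± 0.61) on PP, and its median of 0.40 turned below 0 under scaling to the total signal, scaling on the Homo control spots and no scaling. The let-7 family was as mixed, with 3 of 5 members higher on AA, let-7b at 1.37 and let-7f at −0.84. Its median of 0.12 turned sign under the same 3 settings, with no filter on dim spots, with spots of at least 10 pixels and in the authors' value table. let-7c, its brightest member, had 5527 units on AA and 4841 on PP (0.19 ± 0.08), against 208 on PAA and 238 on PA, where its spots covered a median of 3 and 2 pixels. The hybrid arrays lay on another slide, and no part of that gap can be assigned to slide or composition.

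Each of the 3 pooled tissues had detected markers on both arrays, some near the limit of reading. For liver, miR-122 read 240, 229, 209 and 227 on AA, against 162 and 167 on PP, below BLANK on PP. Its normalized intensities were 270 on AA and 151 on PP (log2 difference 0.84 ± 0.05, SE). The AA level also lay below the BLANK level of PP. A brighter miR-122a probe of other vertebrates had 1397 units on AA and 1622 on PP (−0.22 ± 0.18). miR-194b, which is made with miR-192, differed by −0.07 ± 0.54, and miR-194a was detected on PP only, at 552 units from 2 spots under 10 pixels (2.29-fold over the BLANK level of AA). That level was below the BLANK level of PP. The remaining PP spots of miR-194a read 23 and 21, against 18 to 59 on AA. The liver median was 0.00. For muscle, miR-1 was higher on AA, but miR-133a (0.17 ± 0.20), miR-133b (−0.22 ± 0.36) and miR-206 (0.35 ± 0.80) were within 2-fold and at most 229 units. The passing spots of miR-133a covered 1 pixel each. A brighter miR-133a probe of other animals had 1341 units on AA from 3 passing spots, and 0 spots passed on PP. Whether its PP spots were set aside is not given here. miR-499 was detected on AA only, at 276 units, but its PP spots that were not set aside gave a bound of 1.02-fold. miR-133c was detected on PP only (1.87-fold over the lowest detected level of AA, below BLANK).

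Of 10 brain miRNAs, 9 were detected on both arrays, 5 higher on AA and 4 on PP, with a median of 0.22 that stayed above 0 in every alternative. In the main setting this median was the value of miR-153a, at 132 units on AA and 113 on PP (SE 0.25). miR-153a lay below BLANK on both arrays, with 0 spots of 10 pixels. The bright brain miRNAs went both ways. miR-219, of myelinating cells, had 1998 units on AA and 1136 on PP (0.81 ± 0.10), miR-132, induced by neuronal activity, had 3710 and 2725 (0.45 ± 0.06), and miR-138 had 1673 and 1701 (−0.02 ± 0.08). miR-124, the defining neuronal miRNA, was detected on PP only, at 266 units, below the BLANK level of PP. On AA 1 spot passed, at 326, another read 81, and spots of 504 and 2313 were set aside. The bound was 1.34-fold over its own level on AA. For blood, which any dissected tissue holds, miR-451 of red cells had a log2 difference of 0.77 ± 0.13 (SE), below BLANK on both arrays, miR-144 was on neither array, and 3 of 4 leukocyte miRNAs were higher on AA, of which only miR-155 (0.38 ± 0.09) had at least 2 full spots on both. A further leukocyte miRNA, miR-223, was detected on PP only, with 4 passing spots under 10 pixels there and 0 on AA (2.03-fold over the lowest detected level of AA, below BLANK). The part of blood in the differences was not tested.

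**Figure D4:**
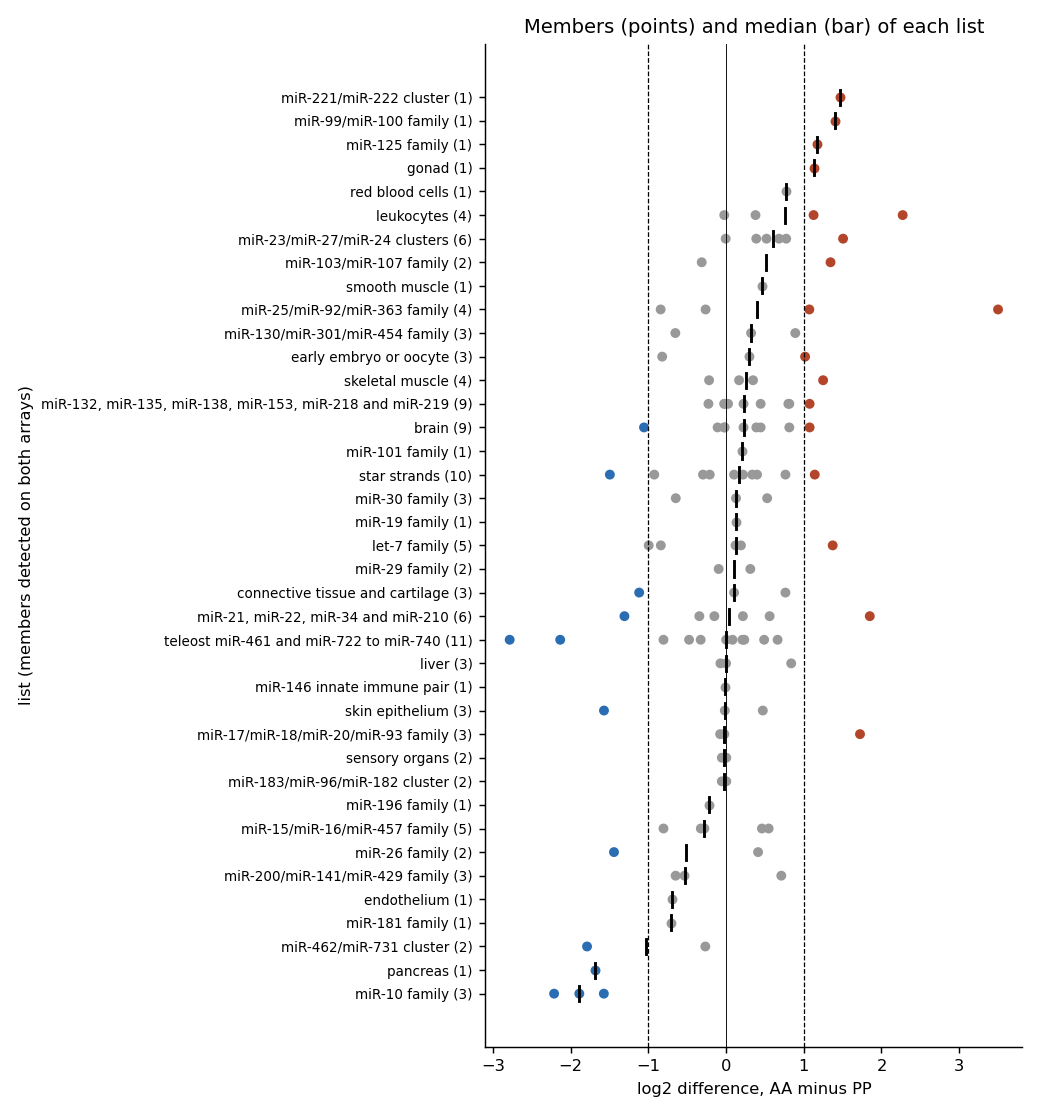
Log2 difference (AA minus PP) of the members detected on both arrays (points, coloured beyond 2-fold) and their median (bar) for 39 lists of miRNAs, ordered by median, with the number of members in brackets. All 3 miR-10 members lie beyond 2-fold on the PP side, while the larger lists straddle 0.

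Probes detected on 1 array only gave bounds, taken as the level on the array with signal over the lowest detected level, or the probe's own level where higher, on the other. The same bound was also taken over the BLANK level of the other array, which is higher. Of the 24 detected on AA only, 11 had too few spots left on PP to be measured, and of the 26 on PP only, 3 on AA. Over the lowest detected level it exceeded 2-fold for 4 probes on the AA side and 14 on the PP side. Over the BLANK level it exceeded 2-fold for 0 on the AA side and 4 on the PP side, which were miR-125b, let-7i, miR-19d and miR-194a. At least 2 spots of 10 pixels stood behind 1 of the 4 on the AA side, miR-30b (3.03-fold over the lowest detected level of PP), and 3 of the 14 on the PP side, which were miR-146a (3.00-fold over that of AA), miR-459 (2.33-fold) and miR-16b (2.01-fold). None of these passed 2-fold over BLANK: miR-146a reached 1.29-fold, miR-459 was level with BLANK, and the levels of miR-30b and miR-16b lay below the BLANK level of the other array. The full PP spots of miR-146a and miR-459 lay on local backgrounds of 241 to 279, against a median of 102 on PP. In the other row of blocks, retained PP spots read 82 for miR-146a, and 18 and 131 for miR-459.

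The highest bounds rested on few spots. miR-125b on PP lay 21.2-fold over the lowest detected level of AA and 9.12-fold over its BLANK level, with passing PP spots of 1123 over 2 pixels and 3518 over 80. On AA its spots read 19, 26, 4191 and 17, and the bright one, which alone could not call the probe detected, had the same place as the spot of 3518 on PP. At that place AA and PP were close. let-7i on PP lay 9.08-fold over the lowest detected level of AA and 3.91-fold over BLANK, from spots of 785 and 814 over 10 and 2 pixels. Its remaining PP spots, in the other row of blocks, read 23 and 20, below each of its AA spots (48, 29, 39 and 49). The bound of let-7i therefore rests on 1 row of blocks. miR-19d lay 6.01-fold over the lowest detected level of AA and 2.58-fold over BLANK, from 3 spots of 85 to 9429 that covered 6 pixels or fewer. On the AA side the highest bound was 4.57-fold over the lowest detected level of PP, for miR-133b*, whose level was below the BLANK level of PP.

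Several bright probes detected on 1 array had spots set aside on the other. let-7e read 1539, 1428, 1035 and 1094 on AA, and 3 of its 4 PP spots, all set aside, read 1338, 1089 and 2084. miR-737 read 2319, 2523 and 2153 on AA, and its 1 retained PP spot read 2101. When such spots were included, 8 of the 24 probes on AA only and 17 of the 26 on PP only remained so.

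The hybrid arrays, on the other slide, gave the same probes a place beside AA and PP. Of the 18 probes higher on AA, PAA lay between AA and PP for 11 and above both for 5, and PA lay between for 10, above both for 5 and below both for 1. Both hybrids were nearer to AA than to PP for 10 of the 15 detected on both. Of the 14 higher on PP, PAA lay between for 8, above both for 2 and below both for 4. PA lay between for 6 of the 9 detected there. These values share their AA and PP levels with the comparison itself and are set side by side without a test.

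The probes differed in this. miR-100 had 437 units on AA and 165 on PP, with 337 on PAA and 201 on PA. miR-1 had 593 on AA and 249 on PP, with 1108 on PAA and 660 on PA. miR-375 had 165 on AA and 532 on PP, with 178 on PAA and 197 on PA, both close to AA. miR-731 stood outside the range of AA and PP altogether, with 140 on AA and 484 on PP, against 2582 on PAA and 5838 on PA, all from 4 passing spots per array.

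**Figure D5:**
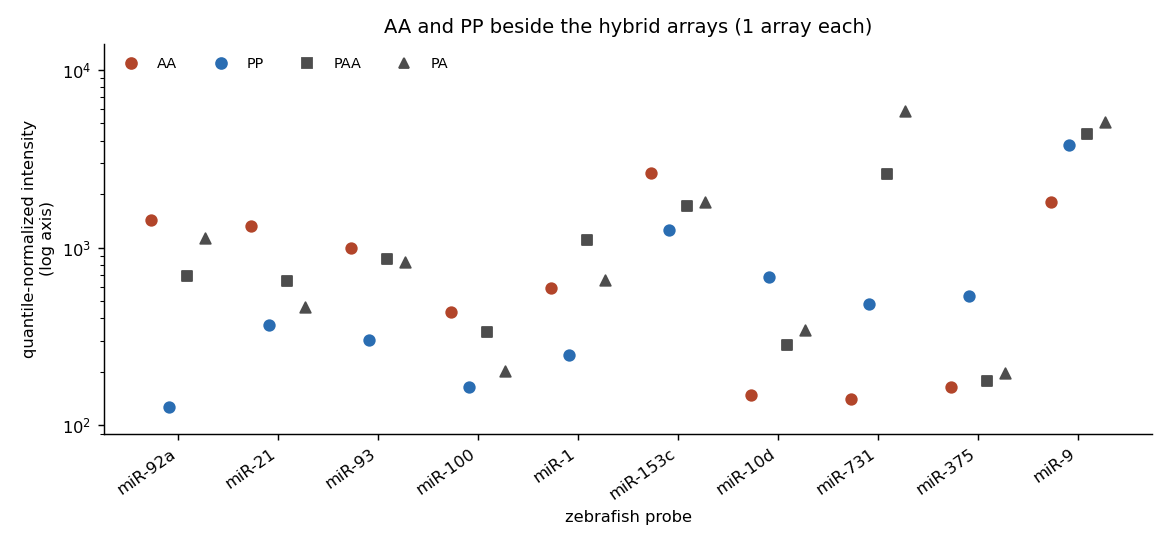
Quantile-normalized intensity (log axis) of 10 zebrafish probes on the AA, PP, PAA and PA arrays, 1 array each, with PAA and PA on another slide. The hybrid points lie between AA and PP for miR-92a and miR-21, near AA for miR-375 and above both for miR-1, miR-731 and miR-9.

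The chip also held probes of other vertebrates under the same names, with sequences that may differ from the zebrafish probe. In 36 pairs detected on both arrays, covering 33 zebrafish probes, 15 had a difference in the same direction (Pearson r of −0.12 and Spearman rho of −0.18 over pairs that share arrays). Of 10 pairs whose zebrafish probe was beyond 2-fold, 4 went the same way and 0 of these passed 2-fold. The probe for mouse and rat miR-10b had 2689 units on AA and 2482 on PP (log2 difference 0.12 ± 0.21, SE), against −1.89 for the zebrafish miR-10b probe. The miR-93 probe of other vertebrates had 883 units on AA and 713 on PP (0.31 ± 0.07), against 1.72. For miR-202 the mouse probe gave 0.29 ± 0.08 and the human probe −1.30 ± 0.48, against 1.13. Their miR-21 probe was detected on neither array. Beyond 2-fold were 18.9% of the 397 other vertebrate probes detected on both arrays, and 24.6% of the 130 zebrafish probes.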

How the data were processed

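Total RNA pools were hybridized to a 1-colour miRNA chip. Per the labels and methods, the authors scanned each slide and quantified spots with QuantArray 3.0, removed values under 200% of background and normalized with BRB-ArrayTools 3.4.0. The deposited scanner files hold the foreground and background intensity of 5040 spots per array, not background subtracted, the scanner's filter mark and spot area, which was divided by the pixel area (pixels 10 µm wide, spots 130 µm across). The authors' value table of 241 probes also holds intensity: its values equalled the geometric mean foreground of retained spots times 1 factor per array (1.18 on AA and 0.963 on PP), without background subtraction, and it was used as an alternative. No source used here explains the filter mark. A mark of 1 was taken as retained, and 11.1% of zebrafish spots on AA and 17.1% on PP were set aside.

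The value of a probe was the mean log2 signal of its passing spots (at least 2 of 4), quantile normalized over the zebrafish probes of all 4 arrays with python 3.11.15 and numpy 2.4.6, and the code gave limma 3.58.1 values on the same input (R 4.3.3). It was tested on simulated data. With 1 array per composition no test was run, and precision is limited by how few arrays there were. The probes named were drawn from the 15 widest differences each way with separate spots and the 5 brightest of each array. Further sources were the 8 widest bounds each way among probes on 1 array and the members of the lists. Not every probe of these sets is named in the text. Other probes beyond 2-fold were named after their values were seen. The members and lists were chosen with earlier results of these data known. Scaling, background correction, spot filters, the summary of spots, the BLANK level and the value table were varied, and spots under 10 pixels were left out as an alternative chosen after seeing the data. Signal per probe depends on its sequence, so levels were compared between arrays, not between probes, except for the ranking by brightness. Sequences were not used here.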

Additional observations from a re-analysis of the deposited data

Results flagged for a closer look

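Signal above the BLANK level also appeared on probes outside the zebrafish set. Of the 25 probes named ZF_miR, whose origin the files do not give, 6 exceeded the level on AA and 6 on PP. ZF_miR_14 had 231 units on AA and 1066 on PP (log2 difference −2.20 ± 0.15, SE over spots) with 4 full spots per array, and ZF_miR_9 had a log2 difference of 1.13 ± 0.18. Of the 76 probes that carry only a number, 26 exceeded it on AA and 14 on PP. Of the 183 probes with invertebrate names only, 65 exceeded it on AA and 39 on PP. In the larger zebrafish set 66 exceeded it on AA and 31 on PP, a smaller share on both arrays. Detected were 63.9% of the invertebrate probes on AA and 73.2% on PP, against 70.6% and 71.6% of zebrafish probes. Among the 106 invertebrate probes detected on both arrays, 10 were higher on AA and 7 on PP beyond 2-fold. Groups held 1 array each, so no array could be set apart from others of its composition.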

How the results depend on the processing

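Of the 32 probes beyond 2-fold, 29 kept their direction in every alternative that gave a value and 7 stayed beyond 2-fold in all of them (miR-92a, miR-21, miR-24, miR-222, miR-10d, miR-731 and miR-736). Raising the dimmer array to its BLANK level gave no value where the brighter level lay below that level. This alternative is therefore left out for miR-24, miR-222 and other probes on the AA side, and for miR-214. With set-aside spots included, miR-103 turned to −0.25, miR-214 to 0.84 and miR-738 to 0.52. The gonad list, miR-202 alone in the main setting, turned to −0.62 with no filter on dim spots and to −0.34 in the authors' value table. The cause was not tested.

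The counts higher on AA and on PP, 18 and 14 as reported, were 9 and 23 with total signal scaling and with scaling on the Homo spots, 10 and 22 with no scaling, 20 and 11 with median scaling, 11 and 12 with normexp, 26 and 25 with set-aside spots, 31 and 37 with no filter on dim spots, 7 and 7 with at least 3 spots, 11 and 19 in the value table, 8 and 6 with spots of at least 10 pixels, and 1 and 3 with both arrays above BLANK. The scalings moved the median of all probes to −0.18 (total), 0.33 (median), −0.19 (Homo) and −0.13 (none). List medians above and below 0, 24 and 14 as reported, were 14 and 25 with total, Homo and no scaling. Lists below 0 numbered 7 with median scaling and 7 with 1 array above BLANK required. Probes on AA only, 24 as reported, numbered 10 with set-aside spots and 15 with foreground at least 1.5 times background, where PP only, 26 as reported, numbered 15. With fewer spots or stricter limits fewer probes were compared (85 with at least 3 spots, 71 with spots of at least 10 pixels, 130 as reported). Signal near background limits the PP array most. No paired analysis was possible because each composition had 1 array.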
